A study of Mus musculus with 2 samples.

Results

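The structures described here are transcript models of C2C12 cells whose chain of introns is in no annotated model, that TALON classed as built from cataloged splice sites, and that were read repeatedly in both libraries sequenced. TALON, the program that sorted the long reads into transcript models, calls this class NIC (in catalog), meaning that the donor and acceptor sites of the chain are in its catalog while the chain itself is not. Members were chosen by their own counts: class NIC, 2 or more exons, the same chromosome, strand and exact intron chain in both libraries, and at least 5 reads in each. Of 18622 NIC chains seen in either library, 3561 (19.1%) were seen in both, and 427 (2.29%) in 345 genes met the minimum. At the edge of the rule lay 79 members whose lower count was 5, and 138 chains with a lower count of 4 were left out. The label was checked against the annotation: in 380 members every splice site was that of an annotated intron, but 47 members (11%, 37 genes, 1161 and 1172 reads) used at least 1 site that is in no annotated intron on that strand. Of those 47, 22 are counted below under exon skipping and 25 under other new junctions, among them the members of Sfr1, Srprb, Hnrnpk, Pitpnb and Hacd1 and 2 of Eno3.

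C2C12 is an established mouse myoblast line, grown out of the crushed thigh muscle of C3H mice. Both libraries were made from total RNA of C2C12 cells and form 1 group of 2 biological replicates, so there is no second condition; the labels used here give neither a treatment nor a stage of differentiation. Replicate 1 gave 791850 reads assigned to 82272 models, and replicate 2 gave 735077 assigned to 78691. NIC models took 24546 reads (3.10%) and 26163 reads (3.56%), and 73.0% and 73.1% of them rested on 1 read. The 7 myoblast markers, from the regulators Myod1 and Myog to the intermediate filament gene Des, all had reads in both libraries, between 60 and 1187. Myog, with 438 and 454 reads, and the fusion gene Mymk, with 108 and 110, are genes of differentiating muscle cells. Of 16 markers of endothelial, blood, fat, neural and epithelial cells, only Tubb3 (48 and 46 reads) and Pparg (9 and 13) were above 3 reads.

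Genes are transcribed into precursors from which introns are removed, and the choice of first exons, internal exons, donor sites (at an intron's 5′ end) and acceptor sites (at its 3′ end) lets 1 gene give several messages. In muscle, such choices are known for the tropomyosins, the troponins, myosin light chains and regulators of splicing itself. A read that covers a message from end to end shows which choices were made together on the same molecule, which short reads do not.

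The sequences below show the changes that the most read and most recurrent members turned on. They are transcript bases of the reference annotation, GENCODE M21 on mm10, on the strand of the gene, and not bases of the C2C12 reads. In Oaz1, capitals are 4 bases (chr10:80828292-80828295, plus strand) that the closest annotated model writes as an intron and that the member kept. In Sfr1, capitals are 49 bases of an annotated coding exon (chr19:47732753-47732801, plus strand) that the member lacked.
Oaz1 member: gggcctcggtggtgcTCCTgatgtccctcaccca
Sfr1 annotated model: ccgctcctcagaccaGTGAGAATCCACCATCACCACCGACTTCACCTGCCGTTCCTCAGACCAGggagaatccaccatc
The next set shows very short annotated exons, in capitals, that members lacked: 6 bases of Phb2 (chr6:124716425-124716430, plus), 5 bases of Sept7 (chr9:25265302-25265306, plus), 16 bases of Hnrnpk (chr13:58393853-58393868, minus) and 12 bases of Uchl3 (chr14:101654208-101654219, plus). For Phb2 and Sept7, the member's bases across the same junction follow, with the bases after the junction in capitals. For Hnrnpk, capitals in the member mark bases that the closest annotated model does not hold.
Phb2 annotated model: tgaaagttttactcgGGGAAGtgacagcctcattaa
Phb2 member: tgaaagttttactcgTGACAGCCTCATTAA
Sept7 annotated model: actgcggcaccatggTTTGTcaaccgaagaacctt
Sept7 member: actgcggcaccatggCAACCGAAGAACCTT
Hnrnpk annotated model: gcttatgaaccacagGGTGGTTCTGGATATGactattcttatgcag
Hnrnpk member: TTGAGTATCAATAATactattcttatgcag
Uchl3 annotated model: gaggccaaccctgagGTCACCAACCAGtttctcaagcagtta
The last set shows 2 longer exons that members left out, and 3 acceptor pairs that lie 3 bases apart. Capitals are the 63-base exon of Cd47 (chr16:49869018-49869080, plus), the 60-base exon of Mff (chr1:82747083-82747142, plus), and the 3 bases between the paired acceptors of Ecm1 (chr3:95738114-95738116, minus), Sarnp (chr10:128838444-128838446, plus) and Ctbp1 (chr5:33248684-33248686, minus). The members of Ecm1 and Sarnp lacked the 3 bases, and the member of Ctbp1 held them where its closest annotated model did not.
Cd47 annotated model: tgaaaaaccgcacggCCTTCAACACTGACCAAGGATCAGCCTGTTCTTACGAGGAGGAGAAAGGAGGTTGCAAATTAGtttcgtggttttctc
Mff annotated model: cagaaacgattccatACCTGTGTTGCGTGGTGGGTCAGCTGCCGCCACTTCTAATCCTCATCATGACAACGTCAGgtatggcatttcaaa
Ecm1 annotated model: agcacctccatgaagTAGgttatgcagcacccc
Sarnp annotated model: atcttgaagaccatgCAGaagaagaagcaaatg
Ctbp1 member: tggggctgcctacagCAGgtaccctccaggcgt

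The 427 members took 8933 reads in replicate 1 and 9195 in replicate 2, which was 36.4% and 35.1% of all NIC reads but 1.13% and 1.25% of all reads. Counts were skewed toward a few genes: the lower of a member's 2 counts had a median of 8 and a highest value of 1368. At least 10 reads in each library were reached by 179 members, at least 20 by 65, at least 50 by 24 and at least 100 by 8. Members had a median of 9 exons (2 to 32) and a median length of 1895 bases (449 to 5622). All but 3 members lay in protein-coding genes (342 genes), and the other genes were 2 long intergenic RNAs and 1 processed transcript. Among genes with a member, 283 had 1, 51 had 2 and 11 had 3 or more.

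**Figure D1:**
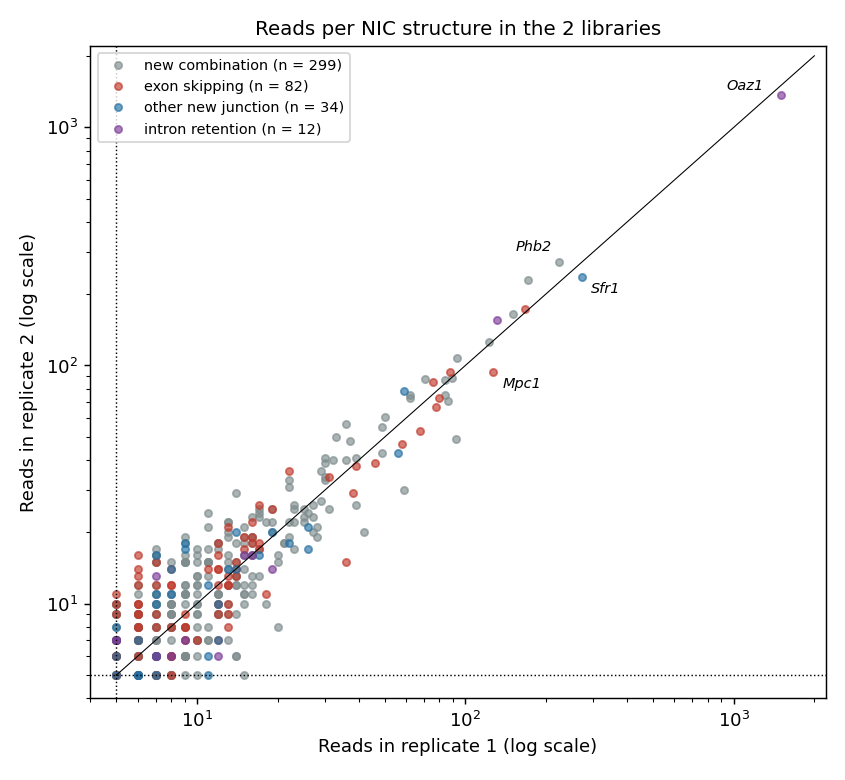
Reads of each of the 427 NIC structures in replicate 1 (x axis) and replicate 2 (y axis), both on log scales, colored by event class; dotted lines mark the minimum of 5 reads and the diagonal marks equal counts. Oaz1, with 1496 and 1368 reads, stands far above the other members, most of which lie near the minimum.

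Every member was compared with all annotated models of its gene. In 299 members (70%, 248 genes) every intron was annotated and only the combination was not. Another 82 members (19.2%, 72 genes) held a junction in no annotated model that passed over at least 1 whole annotated exon. This is counted here as exon skipping. In 73 of the 82 an internal exon of an annotated model was passed over, and in the others only annotated first or last exons. A further 34 (7.96%, 30 genes) held another unannotated junction, and 12 (2.81%, 9 genes) kept a stretch that the closest annotated model removes as an intron. The classes differed in weight per member: the 12 intron retention members had 1730 and 1621 reads, most of them on Oaz1, while the 299 new combinations had 4863 and 5222.

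Measured against the closest annotated model, the one sharing most introns, 405 members differed in a single place. The most frequent differences were an exon skipped (81 members), another acceptor (77), another first exon (65) and another donor (59). Several changes in 1 place were found in 33 members, exons beyond the annotated last or first exon in 30 and 28, and an added exon in 19. An intron was removed from within an annotated exon in 18 members, another last exon was used in 15, and an intron was retained in 13. An end inside an intron was found in 4 members and an exchanged exon in 1.

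**Figure D2:**
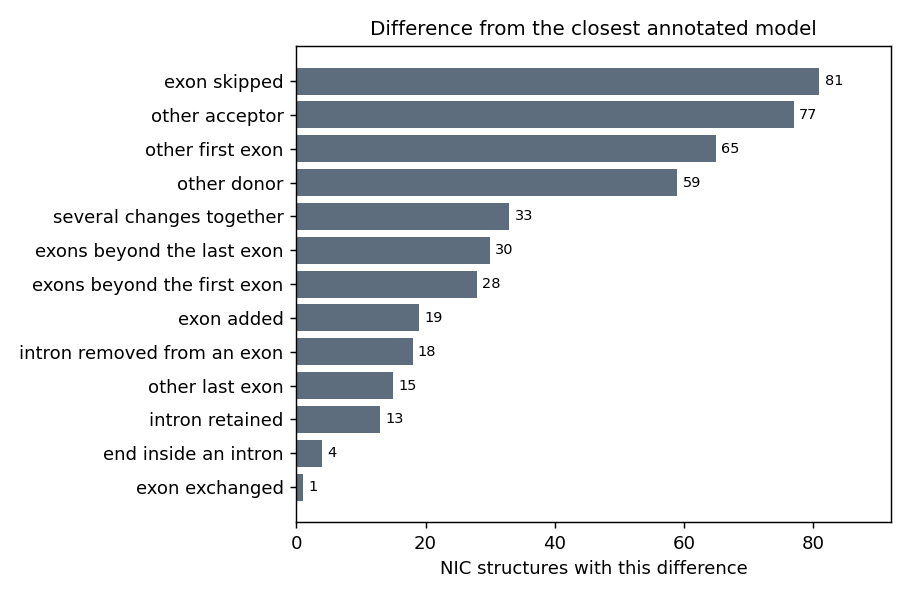
Number of NIC structures (x axis) with each kind of difference from the closest annotated model; a structure with several differences is counted under each. Exon skipping (81), another acceptor (77), another first exon (65) and another donor (59) lead.

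Ends of the deposited models were mostly annotated ones. The 5′ end lay within 100 bases of an annotated start of the gene in 424 members in each library, and the 3′ end within 100 bases of an annotated end in 391 and 386. The median distance was 0 bases at both ends in each library. These are ends of models, not of single reads. How far the building of the models set them was not tested. In both libraries, 3 members started elsewhere (Ttll5, Ncam1 and Ndrg4) and 29 ended elsewhere. Among the latter were the 2 members of Hacd1, a fatty acid elongation enzyme of muscle, which ended 460 bases (replicate 1) and 462 bases (replicate 2) from the nearest annotated end.

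The share of the gene is a member's reads divided by all reads on complete models (Known, NIC and NNC, the class with an unannotated splice site) of its gene. Its median was 13.6% in replicate 1 and 12.1% in replicate 2, with a mean over libraries of 13.3% at the median member. The range was wide: 228 members took at least 10% in each library, 112 at least 25%, 48 at least 50% and 4 at least 90%, whereas 90 stayed under 5% in both. In 90 members the NIC chain was the most read structure of its gene in both libraries. For comparison, 6862 annotated structures passed the same minimum with a median share of 82.9%, and 286 NNC structures with 4.57%; these shares rest on the counts that chose the structures and were not tested.

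The 95% Wilson intervals of a member's share in the libraries overlapped for 427 of 427 members. These intervals cover counting error only and are wide at a median lower count of 8, so neither their overlap nor the absence of calls shows that the shares were equal. Two-sided Fisher's exact tests of each structure's share, adjusted by Benjamini-Hochberg over 7422 structures, called 13 (0.175%), and 0 of 427 members, at an adjusted p under 0.05. At an unadjusted p under 0.05 there were 8 of 427 members and 267 of 7422 structures in all. The members named at the end of this paragraph are among these 8. The counts that chose the members entered this test, so nothing is read from the members' number, and it compared libraries, not conditions. Srprb, which encodes a subunit of the signal recognition particle receptor, had 56 of 69 and 43 of 67 complete reads (81.2% and 64.2%, exact p = 0.0339, adjusted p = 1). An Immt member had 14 of 70 and 9 of 115 (20% and 7.83%, exact p = 0.0208, adjusted p = 1). A member of Nprl3, a subunit of the GATOR1 complex, had 17 of 38 and 24 of 34 (44.7% and 70.6%, exact p = 0.0337, adjusted p = 1). The more read member of Tipin, the partner of Timeless at replication forks, had 28 of 59 and 19 of 68 (47.5% and 27.9%, exact p = 0.0277, adjusted p = 1).

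**Figure D3:**
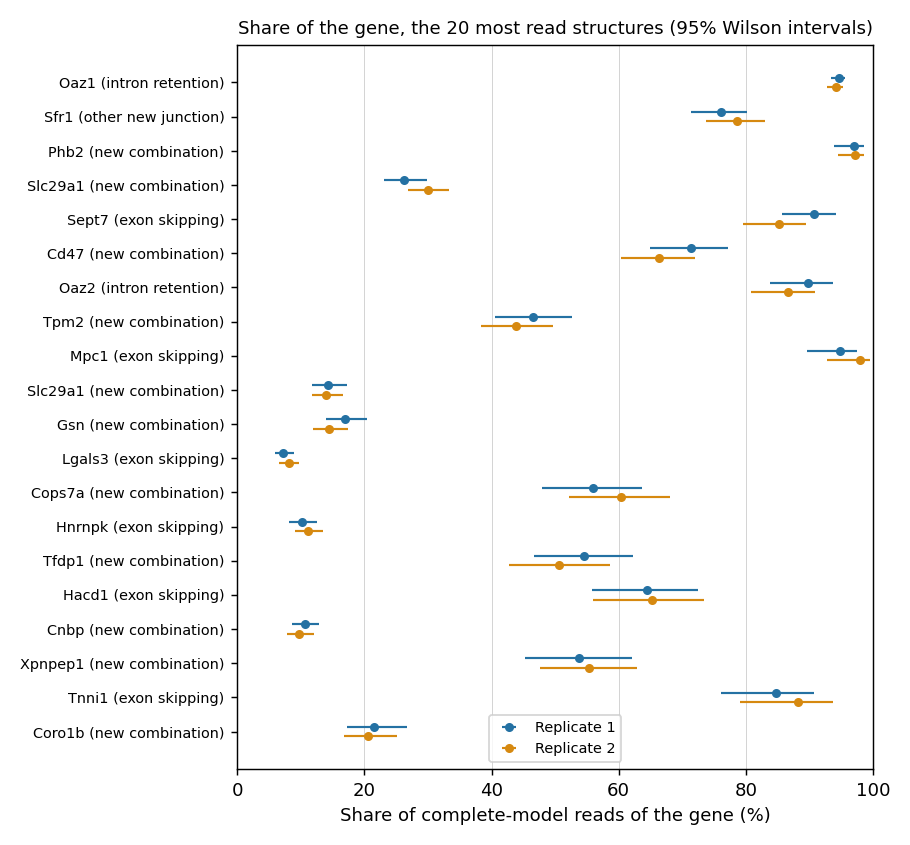
Share of the gene's complete-model reads (x axis, percent) for the 20 most read NIC structures in replicate 1 (blue) and replicate 2 (orange), with 95% Wilson intervals as bars. Oaz1, Phb2 and Mpc1 exceed 90% in both libraries, and Lgals3 lies under 10% in both.

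The most read member was a structure of Oaz1, the gene of ornithine decarboxylase antizyme, which limits polyamine synthesis. It held 1496 of 1581 complete reads in replicate 1 (94.6%, 95% interval 93.4 to 95.6) and 1368 of 1454 in replicate 2 (94.1%, 92.8 to 95.2). It differed from the closest annotated model by the 4 bases TCCT shown above, which that model writes as an intron. Oaz2, the second antizyme gene, had a member of the same kind, with 131 reads (89.7%) and 155 reads (86.6%), and it too kept a 4-base annotated gap. Antizymes are textbook cases of programmed ribosomal frameshifting, in which the ribosome passes over a base at a defined place of the message. Read without a frameshift from the annotated start, the Oaz1 member ended after 68 residues where the annotated protein has 226, and the Oaz2 member after 32 instead of 188. Of the 10 members whose only difference was a retained intron, 4 kept 4 bases or fewer, all of them in these 2 genes. The 4 Oaz1 members together made up 97.3% and 96.6% of the complete reads of the gene.

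Longer retained introns were few and lowly read. Rab24, a small GTPase of membrane traffic, kept 191 bases in 16 and 16 reads (14.7% and 15.8%). Gas2l1, which links actin and microtubules, kept 358 bases in 7 and 13 reads (26.9% and 30.2%) and retained an annotated coding sequence. Card19, Ssbp4, Cuta, Mrpl52 and Ddx39 had the remaining members of this class, with 5 to 12 reads per library.

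In 28 members of 18 genes, the closest annotated model held an internal exon of at most 30 bases that the member lacked. These members had 1206 and 1215 reads and included several of the highest shares. The shares below are those of the member alone, and other reads of its gene may lack the exon too. Phb2, a prohibitin of the mitochondrial inner membrane, had a member without its 6-base exon. That member held 224 of 231 (97.0%) and 273 of 281 (97.2%) complete reads. The member of Sept7, a core septin of the cytoskeleton, held 167 of 184 (90.8%) and 172 of 202 (85.1%) and lacked a 5-base exon. The member of Tnni1, the slow skeletal troponin I, had 78 and 67 reads (84.8% and 88.2%) and lacked a 4-base exon. That of the fast troponin I gene Tnni2 had 13 and 12 (76.5% and 75.0%) and lacked one of 7 bases. The member of Uchl3, a ubiquitin hydrolase, had 92 and 49 reads (86.8% and 77.8%) and lacked a 12-base exon. In each of these 5 genes the member held most of the complete reads in both libraries.

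Reads of all models, members included, were then counted over these exons. Of 20 such short exons, 17 were in no read of any model in either library. Reads spanning the site without the exon numbered 243 and 286 for Phb2, 197 and 217 for Sept7, and 121 and 102 for Tnni1. For Hnrnpk, which encodes an abundant nuclear RNA-binding protein, 788 and 793 reads spanned the 16-base exon and 0 held it. The exceptions were Lgals3 (galectin-3), whose 22-base exon was in 92.4% and 91.5% of spanning reads, Myl1, a myosin light chain, with 22.4% and 13.4% for a 28-base exon, and Pdlim7, a PDZ and LIM protein of muscle, with 0% and 1.28% for a 17-base exon.

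Inclusion was also measured by length over the annotated exons of all genes, among which some of the short exons above qualify. Among exons present in every annotated coding model that spans them, with at least 20 spanning reads in each library, the 5 exons of up to 10 bases had a median inclusion of 0%. The 20 exons of 11 to 20 bases had a median of 19.1%, and 11 of them were under 50%. The 109 exons of 21 to 30 bases had a median of 96.4%, with 3 under 50%. Exons of 31 to 60 bases had a median of 100%, and 0 of 1923 were under 50%. In this set the median inclusion was lower in the shorter length classes. The classes of up to 20 bases hold only 5 and 20 exons. Exons that members lack can be among them, so these classes are no separate support. The part of read alignment in the short-exon members was not tested, and the aligner is not given in the sources used here.

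**Figure D4:**
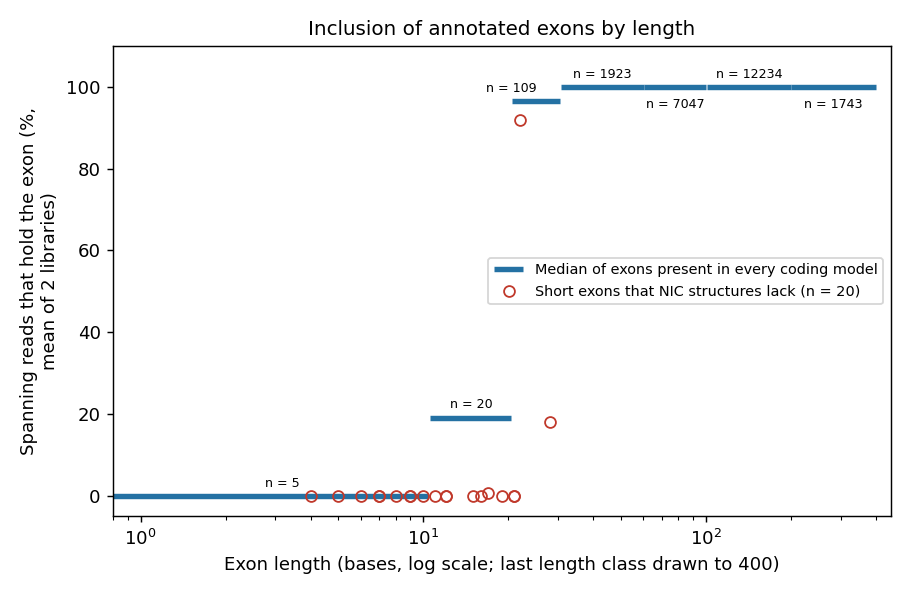
Percent of spanning reads that hold an annotated exon (y axis, mean of 2 libraries) against exon length in bases (x axis, log scale). Blue lines are medians per length class over exons present in every spanning coding model, and red circles are the 20 short exons that NIC structures lack. The median goes from 0% up to 10 bases to 100% above 30 bases, and 17 of the 20 circles are at 0% in both libraries.

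Bases next to the missing exons also changed. In 17 of the 28 members the edge of a neighbouring exon lay closer to the missing exon than in the closest model. In 11 no edge moved. Myl1 is among the 17, but its edge lay 9516 bases away, more than the length of the longest member (5622 bases). There the exon before the junction was another one, not a longer one. In 6 members the bases gained equalled the missing exon in number, so that the total length was kept. Hnrnpk was such a case: 4 of its 6 members lacked the 16-base exon and had 16 bases more of the exon before it. Those 16 gained bases matched the 16 bases of the missing exon at 8 positions. Pitpnb, a phosphatidylinositol transfer protein, lacked an 8-base exon and gained 8 bases in both of its members, which had 58 and 47 reads (56.3% and 48.5%) and 19 and 25 reads.

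Among exon skipping members as a class, 106 distinct internal exons were passed over by unannotated junctions. They were shorter than the 3935 internal annotated exons of the protein-coding genes with a member of any class (median 65.5 against 114 bases). Of the 106, 33 (31.1%) had 30 bases or fewer, against 90 (2.29%) of the 3935. Their lengths were multiples of 3 in 35.8% against 38.8%. In the 72 members that differed from the closest model only by 1 skipped exon, that exon had a median of 104.5 bases (4 to 1711) and was a multiple of 3 in 33 (45.8%).

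Longer exons left out came mostly as new combinations of annotated junctions. Cd47, the cell surface protein that restrains phagocytosis, had a member without the 63-base exon shown above. That member held 150 of 210 (71.4%) and 164 of 247 (66.4%) complete reads. Its frame went on to the same stop codon, with 303 residues where the annotated model has 324. Mff, a receptor for the fission protein of mitochondria, had 3 members with 73 and 88 reads in all (53.3% and 54.0%). The leading pair lacked the 60-base exon, with 32 and 40 reads in one and 30 and 41 in the other. The member of Mbnl2, a muscleblind splicing regulator, lacked a 95-base exon, which moved the stop codon (361 residues against 355). It had 33 and 50 reads (55.9% and 53.2%). In these 3 genes a single structure without the exon held between 21.9% and 71.4% of complete reads, so other structures were read as well. In Mff the leading pair both lacked the exon, so its omission there exceeds the share of either.

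Added exons were rarer. Gsn, the actin-severing protein gelsolin, had a member with a 71-base exon that its closest model lacks, with 89 reads in each library (17.0% and 14.4%). The added exon left the coding sequence as annotated (731 residues). The 17 members with only 1 added exon gained 39 to 152 bases, 9 of them a multiple of 3, and 0 were of 30 bases or fewer.

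Acceptor changes were small. Of 73 members with another acceptor as the only difference, 50 lay within 10 bases and 35 (33 genes) exactly 3 bases from the acceptor of the closest model. The bases between the paired acceptors could be read for 34 of these 35, and all 34 had the form NAG (23 CAG, 7 AAG and 4 TAG). Introns usually end in AG, so a pair of usable acceptors 3 bases apart has this form. Among 3957 internal annotated exons of all the members' genes, coding or not, whose first 3 bases could be read, 6.44% began with NAG. Of the 35, 28 reached the annotated stop codon with another length or residues, 6 kept an annotated coding sequence, and for 1 the bases could not be read.

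These 3-base pairs were found with a median share of 24.8%. Ecm1, an extracellular matrix protein, had 49 and 55 reads (16.3% and 18.3%) on its more read member, and 558 residues against 559. Sarnp, of the mRNA export machinery, had 59 and 30 reads (27.7% and 21.9%). Ctbp1, a transcriptional corepressor, had 39 and 26 (68.4% and 54.2%), and the endosomal sorting gene Hgs 17 and 16 (63.0% and 44.4%). The unannotated combination thus held over 50% of complete reads in both libraries in Ctbp1 and in replicate 1 in Hgs, and under 20% in Ecm1.

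Donor changes were larger and less often in frame. The 58 members with another donor alone had a median shift of 27.5 bases, with 25 of 58 a multiple of 3 against 51 of 73 for acceptors. A shift of 4 bases was the most recurrent small one, in 11 members, with a median share of 4.22%. It included the muscle enolase Eno3, where a donor 4 bases away in no annotated intron was used in 59 and 78 reads (4.83% and 5.91%) and in a second member with 26 and 17. Cops7a, a subunit of the COP9 signalosome, had the most read donor change: 84 of 150 (56.0%) and 87 of 144 (60.4%) complete reads, with a donor 117 bases away and the coding sequence as annotated. Together its 3 members took 66.0% and 71.5% of the gene.

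Junctions in no annotated model were found in 116 members of 101 genes, on 110 distinct introns. Of these, 69 joined sites that both belong to annotated introns, 36 had 1 such site and 5 had none, Sfr1 and Srprb among the latter. Other models of the gene held the same junction in both libraries for 76 of the 116 members, and in neither for 18; those reads did not choose the members. A new junction's share was taken among its own reads and those of annotated introns at its donor or acceptor. The median was 17.8% and 17.4%, and 44 members reached at least 50% in each library. For the 5 junctions with neither site annotated there is nothing to compare, so the share is 100% by definition. Of the 110 junctions, 36 lay within 10 bases of an annotated intron at both sites. In 33 of these only 1 site was shifted, in 13 by 4 bases. In Tnni1 every read in this comparison used the new junction, and in Sept7 100% and 99.5% did. Sfr1 and Srprb, with neither site annotated, had nothing to compare.

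Sfr1, the partner of Swi5 in homologous recombination, had the most read new junction. The member held 273 of 359 (76.0%) and 236 of 300 (78.7%) complete reads, and a further 69 and 55 reads of other models had the same junction. The 49 bases it lacked begin with GT and end with AG. The annotated bases there repeat: at an offset of 48 bases, the missing stretch matched the bases next to it at 98%. Srprb was alike, lacking 97 bases that matched a stretch 98 bases away at 97.9% (chr9:103189497-103189593, minus strand). For the other 14 of the 18 removed introns that could be compared, with shifts of up to 3 bases, the identity lay between 22.9% and 34.3%. Of the 18 removed stretches, 13 were introns of other annotated models and 5 were not annotated introns. Beginning with GT and ending with AG, as most introns do, held for 17 of the 18, including these 5, and 0.543% of 31290 windows of the same lengths in the same models had these ends. Since most of the stretches were annotated as introns already, that share is given only as a description. The part of these repeats in the 2 structures was not tested.

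Mpc1, a subunit of the mitochondrial pyruvate carrier, had a member that reached beyond the first exon of its closest model by an unannotated junction. It held 127 of 134 (94.8%) and 94 of 96 (97.9%) complete reads. Only 1 and 0 reads of other models had this junction, and 3 and 2 used an annotated one at the same donor or acceptor. The frame from the annotated start ended after 42 residues, where the annotated protein has 109.

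First exons varied without touching the coding part in the nucleoside transporter gene Slc29a1. Its 3 members together took 273 of 650 (42.0%) and 348 of 763 (45.6%) complete reads; the leading one had 171 and 229 reads (26.3% and 30%), the second 93 and 107 (14.3% and 14%). Both kept an annotated coding sequence, of 458 and 460 residues. Tfdp1, the partner of E2F factors in cell cycle control, had 84 of 154 and 75 of 148 complete reads (54.5% and 50.7%) on a member with an exon beyond the first exon of its closest model, again with the coding sequence as annotated. Lrrfip1, a leucine-rich repeat protein, had 6 members with 82 of 134 (61.2%) and 99 of 218 (45.4%) complete reads, and none of them reached 20% alone.

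Other genes with several members split their reads among structures of small counts. Immt, a core subunit of the complex that shapes mitochondrial cristae, had 4 members with 35 of 70 (50%) and 39 of 115 (33.9%) complete reads. Map7d1, a microtubule-associated protein, had 3 with 28 and 37 reads (48.3% and 49.3%), and Klc1, a kinesin light chain, 3 with 24 and 25 (27% and 32.5%). In Klc1, 2 of the 3 skipped a 131-base exon and all 3 used another stop. Krtcap2, a subunit of the oligosaccharyltransferase, had a new junction in 26 and 21 reads (13% and 13.2%), and its frame ended after 12 residues against 136.

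The list of muscle, contractile and cytoskeleton genes held 31 members in 23 genes: Add1, Bin1, Cap1, Capg, Fhl1, Kif23, Klc1, Myl1, Myl6, Myl9, Pdlim2, Pdlim7, Sept6, Sept7, Sept8, Tnni1, Tnni2, Tpm1, Tpm2, Tpm3, Tuba1b, Vim and Zyx. Tpm2, the beta tropomyosin that lines the thin filament, had 122 of 262 (46.6%) and 126 of 287 (43.9%) complete reads on a member whose last exon began 1142 bases further than in its closest model. Its frame had 284 residues, as has the annotated one, but another stop codon. Tpm3 had 2 members: one with another last exon (27 and 26 reads, 5.72% and 5.16%) and one with a 79-base exon added (22 and 33 reads). Capg, an actin-capping protein, had 15 and 19 reads (3.29% and 4.43%). Abundant genes had members of small share: the 4 members of the myosin light chain Myl6 together took 3.36% and 3.05%, and the Vim member 5 reads in each library (0.148% and 0.126%).

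The RNA processing list held 28 members in 17 genes: Celf2, Clk4, Cpsf6, Cstf1, Ddx39, Ddx5, Ddx50, Hnrnpa1, Hnrnpa2b1, Hnrnpc, Hnrnpk, Mbnl2, Rbms1, Rbmx, Srsf2, Srsf5 and Srsf7. The 6 Hnrnpk members together took 195 of 750 (26.0%) and 205 of 763 (26.9%) complete reads, and the leading 2 had 76 and 85 reads and 68 and 53 reads. Rbms1, a single-stranded nucleic acid binding protein, had 62 and 73 reads (53.4% and 48.3%) with another first exon. Rbmx, an hnRNP on the X chromosome, had 30 and 34 (78.9% and 75.6%) with another last exon than its closest model, an annotated decay target, and its frame of 391 residues matched an annotated coding sequence. Ddx50, a nucleolar helicase, had 25 and 23 (49% and 38.3%).

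Of 4281 genes with at least 20 complete reads in each library, 304 (7.10%) had a member. The count was 22 of 99 (22.2%) in the muscle and cytoskeleton list, 17 of 96 (17.7%) in RNA processing and 6 of 46 (13%) in matrix and adhesion. It was 13 of 154 (8.44%) in membrane traffic, 5 of 85 (5.88%) in proteasome and ubiquitin, 6 of 138 (4.35%) in mitochondria and energy and 11 of 254 (4.33%) in translation. Over all genes the share with a member was 4.77% of the 1928 genes with 20 to 49 complete reads in the shallower library, and 18.5% of the 173 genes with at least 500. The median of that lower count was 117 for muscle and cytoskeleton, 62.5 for RNA processing, 80 for matrix and adhesion and 72 for membrane traffic. It was 88 for proteasome and ubiquitin, 152 for mitochondria and energy, 127.5 for translation and 55 for all genes. These medians do not adjust the list counts for depth, and the part of depth in them was not tested.

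The reading frame was followed from the annotated start codon through the bases of each member. It reached a stop in 367 members. In 156 of these (42.5%) the coding sequence was an annotated one, in 102 (27.8%) the annotated stop was reached with another length or residues, and in 109 (29.7%) another stop was used. Of the 102, 73 were shorter and 27 longer than the closest coding model. Of the 109, 92 were shorter, and in 63 the stop lay over 50 bases before the last exon junction, a position that is known to mark messages for nonsense-mediated decay. No annotated start was held by 33 members, 18 ran through bases that no annotated transcript covers, 6 had no stop, and 3 had no coding model.

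The outcome differed between the event classes, counted here over all members of each class. An annotated coding sequence was kept by 138 of 299 new combinations, by 13 of 82 exon skipping members, by 4 of 34 members with another new junction and by 1 of 12 with intron retention. Another stop was used by 51, 34, 14 and 10 of them. The totals include members whose frame reached no stop, unequally by class. Among new combinations, 21 held no annotated start and 6 had no stop. Of the exon skipping members, 8 ran through uncovered bases, 11 held no annotated start and 3 had no coding model. With another new junction, 10 ran through uncovered bases and 1 held no annotated start. The intron retention class includes 4 members of Oaz1 and Oaz2 that kept 4 bases or fewer. Their frame was read without the frameshift known for antizymes, so its stop does not describe intron retention in general. Of the 28 members that lacked a short exon, 14 had another stop: in Sept7 the frame ended after 25 of 437 residues, in Tnni1 after 16 of 187 and in Uchl3 after 23 of 230. The net changes in these 3 were 5 and 4 bases lost and 2 gained, none a multiple of 3, and no protein was measured. Starts of other annotated models of the same gene were not followed.

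**Figure D5:**
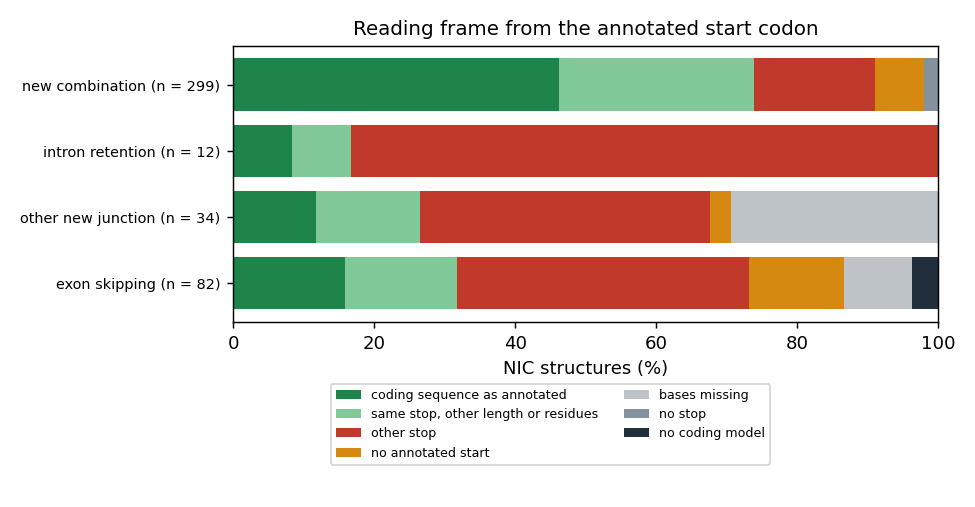
Percent of NIC structures (x axis) by the outcome of the frame read from the annotated start codon, for each event class (y axis). Of the 299 new combinations 138 keep an annotated coding sequence, whereas 10 of the 12 intron retention structures reach another stop. The 12 include 4 structures of Oaz1 and Oaz2 that keep 4 bases or fewer and were read without a frameshift.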

How the data were processed

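Long-read RNA libraries of C2C12 cells (1 group, 2 biological replicates) were analysed from the authors' deposited files. Per the file headers, the values are counts of reads per TALON transcript model, whole numbers that were not normalized, and the models are on mm10 with GENCODE M21 gene names. The aligner is not given in the sources used here. Depth was 791850 and 735077 reads; 3 reads, the limit that a count of 0 allows, were 0.000379% and 0.000408% of a library.

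Exon chains were taken from the deposited models and paired across the libraries where chromosome, strand and every intron were equal; no identifier of an NIC model was shared. Counts of models with 1 chain were summed. Event classes were set against all annotated models of the gene, and differences against the model sharing most introns. Bases came from M21 transcript sequences. Python 3.11.15 and SciPy 1.17.1 gave Wilson intervals and Fisher's exact tests with Benjamini-Hochberg adjustment over all 7422 structures tested; event calls and the test were tested on simulated data. Alternatives were other minimums, 1 library alone, other denominators, end tolerances and matching rules.

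The members and gene lists were chosen with earlier results of these data known. Named with values were the 15 members with the highest lower count, the 4 highest of each event class, the 8 highest shares, genes with 3 or more members, the 6 smallest adjusted p (all were 1, so ties went by count), and the 6 most read of the muscle and cytoskeleton and RNA processing lists. Genes named beyond this rule (among them Tnni2, Pitpnb, Ecm1, Sarnp, Ctbp1, Hgs, Gas2l1, Hacd1, Myl1, Nprl3 and Tipin) and the patterns of short exons, repeats and acceptor pairs were chosen after their values were seen. Lists matched by symbol start also hold unrelated genes such as Timp1, Lamp1, Itgb3bp, Cops7a and Arl14ep. Bases of introns were not analysed here, except where an annotated transcript holds them as exon bases.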

Additional observations from a re-analysis of the deposited data

How the results depend on the processing

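The number of members rests on the read minimum: 427 became 825 at 3 reads and 179 at 10 reads, and 706 to 742 when 1 library alone was used. Genes with a member went from 345 to 656, 155 and 558 to 583 in the same order. The median share of 13.3% became 9.84% at 3 reads, 23.5% at 10 reads, 11.1% to 11.5% with 1 library alone, 10.96% over all reads of the gene, and 11.5% in genes with at least 20 complete reads. With 10 reads, there were 39 exon skipping members, 13 with another new junction, 5 with intron retention and 122 new combinations. Without the 47 members that use a splice site of no annotated intron, an alternative chosen after seeing the data, members with another new junction numbered 9 instead of 34, exon skipping 60 instead of 82, and all members 380 in 317 genes. Multiples of 3 among skipped exons were 45.8% against the closest model and 35.8% by unannotated junctions. Structures whose share differed numbered 106 with all reads of the gene as denominator, against 13 with complete reads and 12 at 10 reads, and members among them 0 in each setting. Tnni1 went from 86.5% to 58.5% of the gene over all reads. Requiring 3 exons (424 members) or matching ends within 100 bases (372), other end tolerances and models of any gene changed counts by at most 1.5 times. Matching by identifier gave no member, and the share test could not be run with 1 library. No paired analysis was possible because both replicates belong to 1 group. Depth limits the set: 79 members sit at the minimum of 5 reads.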
